A study of Mus musculus with 32 samples.

Results

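The LIF receptor and STAT3 pathway was followed through mouse preimplantation development as 8 genes, chosen by name: the ligand Lif, the receptor chains Lifr and Il6st, the kinases Jak1 and Jak2, the transcription factor Stat3, its inhibitor Socs3 and the phosphatase gene Ptpn11. All 8 were listed in each of the 3 deposited tables, among 24034 gene symbols in all (24013 in the stage table and 22536 in each knockdown table). The values were FPKM, fragments per kilobase of transcript scaled to library depth, from polyadenylated RNA sequenced by a modified Smart-seq2 method, which makes full-length cDNA from few cells.

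Leukemia inhibitory factor binds a receptor made of LIFR and the shared chain gp130, the product of Il6st. JAK kinases held by these chains phosphorylate STAT3, which enters the nucleus and activates genes that include Socs3, whose product blocks the receptor and the kinases. SHP2, the product of Ptpn11, links the same receptor to the RAS and ERK branch. The pathway keeps mouse embryonic stem cells undifferentiated in culture and sustains the inner cell mass of embryos in diapause.

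The knockdown tables held 4 libraries of 8-cell embryos injected with siRNA against Nr5a2 and 4 of their injected controls, and 4 libraries of blastocysts injected with siRNA against Gata4 and 3 of their injected controls. After injection they grew in CZB medium with glutamine. The stage table gave 1 deposited value per gene in each of 8 columns, in this order: MII oocyte, zygote, early 2-cell, 2-cell, 4-cell and 8-cell, all with 2 samples, then ICM with 3 and mESC with 2. ICM is the inner cell mass, isolated by immunosurgery, and mESC are embryonic stem cells of the mouse line R1, grown with serum and LIF. Oocytes were from C57BL/6N females, 20 h after hCG. All embryos were C57BL/6N crossed with DBA/2N. Those of the stage table had a mother given 5 IU PMSG and 5 IU hCG; for the injected embryos the labels used here give no dose. Since the labels do not say that libraries came from separate cultures or litters, a p-value here covers the spread between libraries, which may be technical. They do not give the siRNA sequences.

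Between 7378 and 9580 genes reached 1 FPKM in each library or stage. Read totals are not given, and the steps between low FPKM values put the deepest 8-cell library at 2.90 times the shallowest. The blastocyst libraries were of 2 kinds: the ribosomal precursor Rn45s was listed at 0 in knockdowns 1 and 2 and control 2, and at 37959 to 44718 FPKM in knockdowns 3 and 4 and controls 1 and 3. In the stage table Rn45s was above 0 in MII oocytes, early 2-cell embryos and mESC, and at 0 in the other stages. Nanog, an epiblast gene, stood at 288 FPKM in ICM and 94.4 FPKM in mESC, while the trophectoderm keratins Krt8 and Krt18 stood at 62.7 and 86.1 FPKM in ICM. None of the 6 fibroblast markers reached 1 FPKM in mESC. In MII oocytes 1 of 8 cumulus and granulosa markers did, Cyp19a1 at 24.7 FPKM.

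The promoters shown here belong to the receptor pair and to the STAT3 and Socs3 genes, on which the knockdown results below turn. They are the 250 bases before the start of each gene, 5′ to 3′ on the gene's own strand, from RefSeq (GRCm38.p6). The deposited values were made on mm9, so these coordinates are RefSeq's and not those of the files. All 8 genes had a RefSeq entry, with 9 such windows in all, since Lifr had 2 starts. Capitals mark the motif matches found by searching both strands for TTCNNNGAA (the STAT site), CAAGGTCA (the site of NR5A2) and AGATAA (the GATA site).
Socs3 (chr11:117969367-117969616, minus strand): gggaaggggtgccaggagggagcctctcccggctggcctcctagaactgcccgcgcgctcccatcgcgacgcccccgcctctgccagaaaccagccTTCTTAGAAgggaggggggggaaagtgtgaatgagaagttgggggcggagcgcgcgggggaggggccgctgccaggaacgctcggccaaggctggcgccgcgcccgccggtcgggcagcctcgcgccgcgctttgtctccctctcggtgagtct
Stat3 (chr11:100939541-100939790, minus strand): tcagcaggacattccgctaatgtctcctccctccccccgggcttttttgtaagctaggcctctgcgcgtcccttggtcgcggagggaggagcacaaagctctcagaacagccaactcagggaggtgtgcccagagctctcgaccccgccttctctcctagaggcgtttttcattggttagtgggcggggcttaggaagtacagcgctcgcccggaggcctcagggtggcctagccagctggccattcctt
Lifr, first start (chr15:7129322-7129571, plus strand): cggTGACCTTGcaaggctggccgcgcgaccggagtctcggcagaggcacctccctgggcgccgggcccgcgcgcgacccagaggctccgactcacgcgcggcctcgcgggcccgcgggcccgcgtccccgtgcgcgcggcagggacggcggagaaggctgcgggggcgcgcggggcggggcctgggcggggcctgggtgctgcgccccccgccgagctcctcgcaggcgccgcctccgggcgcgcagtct
Il6st (chr13:112463820-112464069, plus strand): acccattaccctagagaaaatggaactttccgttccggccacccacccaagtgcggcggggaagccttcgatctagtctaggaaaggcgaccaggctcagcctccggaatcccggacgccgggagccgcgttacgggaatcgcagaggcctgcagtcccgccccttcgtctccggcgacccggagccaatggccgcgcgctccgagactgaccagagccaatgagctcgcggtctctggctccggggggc

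The Socs3 window held 1 STAT match, TTCTTAGAA, from 154 to 146 bases before the start. TTCNNNGAA was present in 7.02% of 32851 promoter windows of the same length. The first Lifr window held 1 NR5A2 match, read on the opposite strand as TGACCTTG, from 247 to 240 bases before the start, and CAAGGTCA was present in 1.33% of all windows. The other 7 windows of the 8 genes, Stat3 and Il6st included, held none of the 3 motifs, and AGATAA (9.99% of all windows) was in none of the 9. A match describes letters only.

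Across the stages the ligand stayed low, Lifr was above 1 FPKM only in ICM and mESC, and Il6st was highest in MII oocytes and higher again in ICM. Lif was listed at 0 in MII oocytes and zygotes and between 0.0542 and 0.454 FPKM in the other stages, with the highest value at the 4-cell stage. It never reached 1 FPKM. Among the 8 ligands of the same IL6 family none reached 5 FPKM at any stage, and the sum of all 8 was at most 2.88 FPKM, at the 8-cell stage.

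Lifr, the chain that gives the receptor its specificity for LIF, had 0.601, 0.406, 0.493, 0.387, 0.0801 and 0.0673 FPKM in the 6 columns from MII oocyte to 8-cell. It then had 7.11 FPKM in ICM and 3.55 FPKM in mESC, the only columns above 1 FPKM. Il6st, the shared signalling chain, had 14.0, 7.96, 11.3, 3.66, 0.866 and 0.0477 FPKM over the same stages from MII oocyte to 8-cell, and 6.59 and 1.72 FPKM in ICM and mESC. Both chains were thus at their lowest in 8-cell embryos, and both were higher in ICM, by 2.93 for Lifr and 2.86 for Il6st on the log2(FPKM + 1) scale. Their levels before that differed: the Il6st transcript was abundant in oocytes, with a ratio of Lifr to Il6st of 0.0428, against 1.08 in ICM and 2.06 in mESC.

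The kinase genes changed places during cleavage. Jak1, the main kinase of gp130, had 52.0, 32.9 and 36.7 FPKM in MII oocytes, zygotes and early 2-cell embryos, then 6.74, 2.54, 5.14, 6.30 and 2.49 FPKM in 2-cell, 4-cell, 8-cell, ICM and mESC. Jak2, a kinase of many cytokine receptors, had 17.5, 24.5, 26.2 and 39.6 FPKM from MII oocyte to 2-cell embryo, then 12.0, 2.87, 0.0948 and 0.267 FPKM in 4-cell, 8-cell, ICM and mESC. Jak2 exceeded Jak1 only in the 2-cell and 4-cell columns, at 5.87 and 4.73 times its level, and in ICM it stood at 0.0151 times the level of Jak1.

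Stat3 was highest in the oocyte and again high in ICM. It had 48.3, 21.8, 24.1, 5.35, 6.64, 3.44, 15.8 and 4.25 FPKM from MII oocyte to mESC in the order of the stages. Socs3, the feedback inhibitor, was lowest in zygotes and highest in 4-cell embryos, with 0.451, 0.266, 1.35, 16.5, 91.1, 26.0, 8.59 and 3.73 FPKM. The ratio of Socs3 to Stat3 was therefore 0.00932 in MII oocytes, 13.7 in 4-cell embryos, 7.57 in 8-cell embryos and 0.542 in ICM. The 4-cell embryo had the highest Socs3 level while Lifr and Il6st were both below 1 FPKM and Lif was at 0.454 FPKM.

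Ptpn11, which encodes SHP2, varied least among the 7 genes that reached 5 FPKM, with 20.0, 14.7, 12.5, 24.5, 16.2, 6.75, 3.04 and 3.03 FPKM in the order of the stages. Its highest value was in the 2-cell column, as was that of Jak2.

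**Figure D1:**
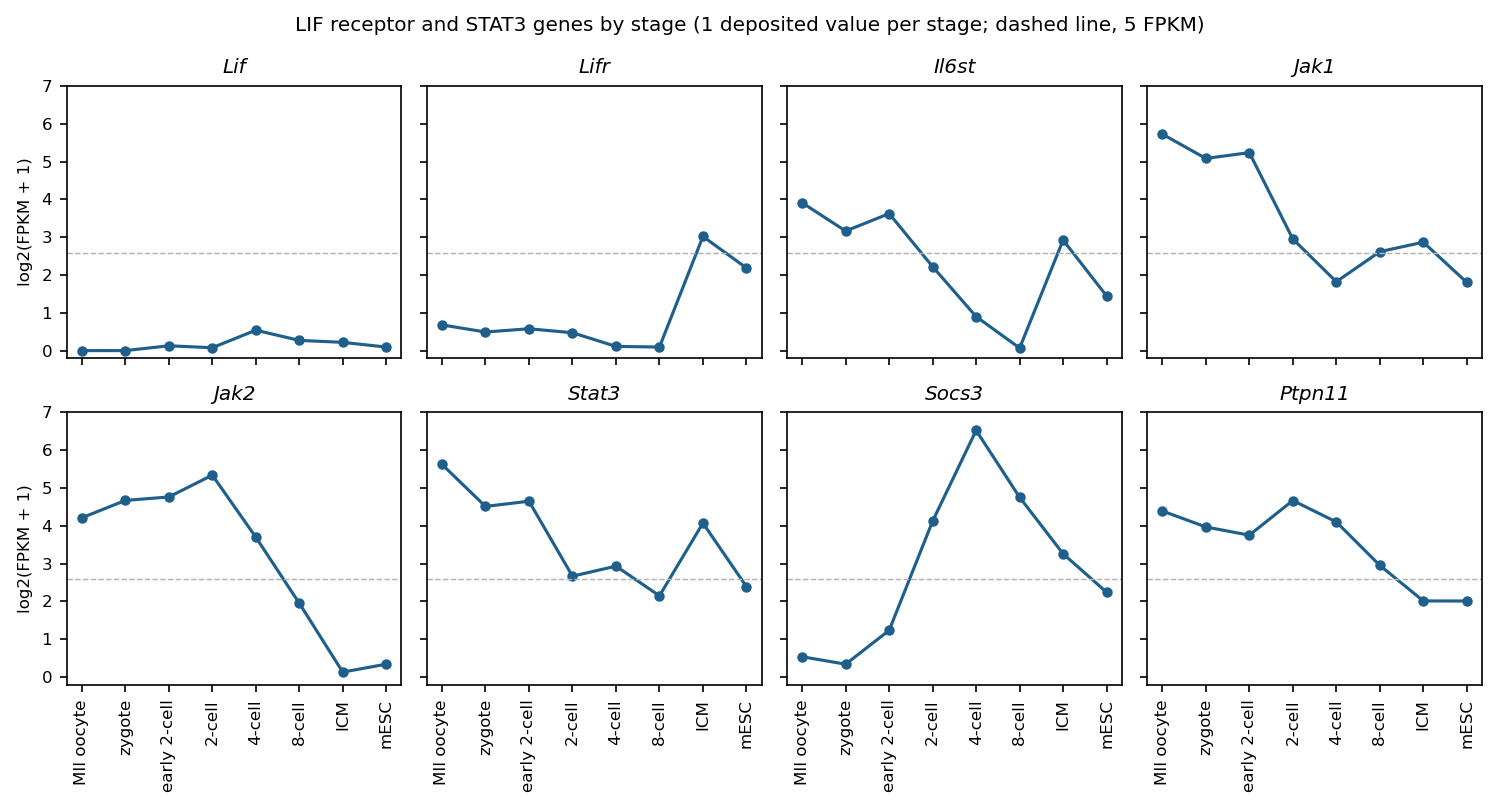
Level of each of the 8 genes on the log2(FPKM + 1) scale (y axis) in the 8 stage columns (x axis), 1 deposited value per stage with no error bar; the dashed line marks 5 FPKM. Lifr and Il6st are both lowest at the 8-cell stage and higher in ICM, Jak2 drops to 0.0948 FPKM in ICM, and Socs3 peaks at 91.1 FPKM in the 4-cell column.

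With 1 value per stage no step could be tested. A step counted as different where log2(FPKM + 1) moved by 1 or more and the higher of the 2 stages reached 5 FPKM, and 19 of the 56 pairs of gene and step met this, 5 of them higher and 14 lower in the later stage. With no value per sample, neighbours in the order of a gene's levels cannot be told apart. Rn45s was above 0 in only 1 of the 2 stages from MII oocyte to zygote and from zygote to early 2-cell. The same held from early 2-cell to 2-cell and from ICM to mESC. At these steps a difference between stages cannot be told apart from one between columns with and without Rn45s. The median of all genes with 5 FPKM in either stage moved by -0.33 from MII oocyte to zygote, 0.27 from 2-cell to 4-cell and -0.72 from ICM to mESC on this scale, and by less than 0.1 in size at the other 4 steps.

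From MII oocyte to zygote 1 of 5 members that reached 5 FPKM was lower, Stat3 (-1.11), and none was higher, against 21.6% lower and 12.6% higher among all genes at that level. This step of Stat3 did not meet the rule after median scaling (-0.98), after quantile normalization or with a pseudocount of 5. From zygote to early 2-cell 0 of 5 differed (5.36% of all genes were higher and 8.58% lower). From early 2-cell to 2-cell, when the embryonic genome is switched on, Il6st, Jak1 and Stat3 were lower (-1.40, -2.28 and -1.98) and Socs3 was higher (2.89), which is 3 lower and 1 higher of 6, against 34.3% and 34.7% of all genes. From 2-cell to 4-cell Jak1 and Jak2 were lower (-1.13 and -1.64) and Socs3 was again higher (2.40), 2 lower and 1 higher of 5, against 17.3% and 24.1%.

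From 4-cell to 8-cell Jak2, Socs3 and Ptpn11 were lower (-1.75, -1.77 and -1.15), 3 of 5 members against 9.71% of all genes, and none was higher (6.9% of all genes). From 8-cell to ICM Lifr, Il6st and Stat3 were higher (2.93, 2.86 and 1.92) and Socs3 lower (-1.49), 3 higher and 1 lower of 6, against 27.8% and 21.9%. From ICM to mESC Il6st, Jak1, Stat3 and Socs3 were lower (-1.48, -1.06, -1.68 and -1.02), 4 of 5 against 40.6% of all genes, and none was higher (11.6%). Set against the median of all genes, which was itself -0.72 at that step, none of these 4 passed the rule after median scaling. There Stat3 differed by -0.93 and Il6st by -0.73. After quantile normalization Jak1 and Socs3 did not pass it, while Il6st and Stat3 did.

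Among the stage courses of 9573 genes with at least 5 FPKM somewhere, those most like Lifr by Pearson's r over the 8 columns were Tcf7l1 (0.992), Klf6 (0.990) and Mpnd (0.986). Those most like Socs3 were Tbl2 (0.993), Vps18 (0.991) and Dph2 (0.988). Those most like Jak1 were Kdm6b (0.993), Deptor (0.988) and Fut11 (0.988), where 482 genes had an r of at least 0.95, so that this course was a common one.

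Those most like Il6st were Skap2 (0.987), Ddx59 (0.984) and Arid5b (0.976), and those most like Stat3 were Vwa8 (0.986), Mapre3 (0.983) and Pik3r4 (0.981). Jak2 was followed most closely by Plekha8 (0.989), Rb1 (0.988) and Glcci1 (0.982), and Ptpn11 by Trappc10 (0.987), Wwc2 (0.985) and Socs7 (0.985), a member of the SOCS family. Among the members, Jak2 and Ptpn11 (0.957), Il6st and Stat3 (0.910) and Jak1 and Stat3 (0.887) had the most similar courses, and Jak1 and Socs3 had an r of -0.81. These coefficients rest on 8 columns that share library depth and scaling within each stage, and Lif was left out because it never reached 5 FPKM.

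Other genes of the pathway spanned as wide a range. Of the JAK kinases, Jak3 was above 1 FPKM only in ICM (4.10 FPKM), and the summed level of the 4 JAK genes was 72.7 FPKM in MII oocytes and 4.46 FPKM in mESC. Of the STAT genes, Stat4 had 26.1 FPKM and Stat6 6.71 FPKM in MII oocytes, against 0 and 0.317 FPKM in 8-cell embryos. Of the SHP2, ERK and PI3K genes, Mapk3 (ERK1) was highest in early 2-cell embryos (94.2 FPKM), while the docking protein gene Gab1 was highest in mESC (29.8 FPKM).

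The 17 STAT3 target genes known from mouse embryonic stem cells were highest in sum at the 4-cell stage, at 656 FPKM, with 416 FPKM in ICM and 270 FPKM in mESC. Pramel7, a target that supports pluripotency, accounted for 343 FPKM of the 4-cell sum and was listed at 0 in mESC. Myc, a growth regulator, had 56.1 FPKM in 4-cell embryos and 13.4 FPKM in mESC. The genes of the inhibitor list with the widest ranges were Socs3 itself, Pias1 (140 FPKM in MII oocytes and 2.27 FPKM in mESC) and Pias4 (94.0 and 1.83 FPKM).

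Nr5a2, an orphan nuclear receptor of the early embryo, was knocked down and its effect read in 8-cell embryos. Nr5a2 itself had 3.76, 4.25, 6.72 and 6.60 FPKM in knockdowns 1 to 4, against 23.6, 20.3, 13.1 and 25.2 FPKM in controls 1 to 4, with no overlap, and it fell by 1.76 on the log2 scale (limma adjusted p = 0.0143). It was the least reduced in knockdowns 3 and 4, and its limma adjusted p was 0.0611 without control 1 and 0.0845 with no expression filter. Of 8170 genes with at least 1 FPKM in 4 libraries, 2.26% were called at an adjusted p under 0.05, 1.57% higher and 0.698% lower. The median of all genes tested was 0.12 higher in the knockdown.

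Of the 8 members 4 passed the filter on low values (Jak1, Stat3, Socs3 and Ptpn11), and none of those 4 was called by limma, while Stat3 and Socs3 had an unadjusted p under 0.05, as did 20.6% of all genes tested. The members with the widest difference were the transcription factor and its inhibitor, and they differed in opposite directions.

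Stat3 had 4.28, 6.56, 1.56 and 2.53 FPKM in knockdowns 1 to 4, against 0.650, 1.62, 0.648 and 0.834 FPKM in controls 1 to 4. The ranges met only where knockdown 3 lay just under control 2. The means were 3.73 ± 2.20 FPKM in the knockdown and 0.937 ± 0.461 FPKM in the control (SD, n = 4 each). The fitted log2 fold change was 1.20, with an SE of 0.34 and an adjusted p = 0.0887 (limma). Stat3 entered this fit through its knockdown values, since control 2 alone among the controls reached 1 FPKM. Its p there is therefore no separate support for a difference. In a limma fit without the filter the adjusted p was 0.229. Permuting the libraries exactly gave a two-sided p = 0.0571, where the smallest p that 70 arrangements allow is 0.0286.

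Socs3 had 28.4, 25.1, 71.0 and 22.9 FPKM in knockdowns 1 to 4, against 135, 123, 38.3 and 79.8 FPKM in controls 1 to 4. Knockdown 3 stood above control 3, and the other 3 knockdowns were below every control. The means were 36.9 ± 22.9 FPKM in the knockdown and 94.2 ± 44.2 FPKM in the control (SD, n = 4 each). The fitted log2 fold change was -1.34, with an SE of 0.42 and an adjusted p = 0.119 (limma), and the exact permutation p was 0.0571.

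Knockdown 3 thus had the highest Socs3, the lowest Stat3 and the highest Nr5a2 of the 4 knockdown libraries. Its Nr5a2 was close to that of knockdown 4 (6.72 and 6.60 FPKM), which had the lowest Socs3, at 22.9 FPKM. A relation to the level of Nr5a2 was not tested. Without knockdown 3 the log2 fold changes were 1.45 for Stat3 (limma adjusted p = 0.0420) and -1.70 for Socs3 (adjusted p = 0.0418), and both were called. They were called in none of the other 7 fits with 1 library left out. In all these fits Stat3 passed the filter through its knockdown values. After median scaling of the libraries the fold changes of Stat3 and Socs3 were 1.07 and -1.47, with limma adjusted p = 0.119 and 0.0995.

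The ratio of Socs3 to Stat3, a pair chosen after these values were seen, was 6.65, 3.82, 45.6 and 9.08 in knockdowns 1 to 4, against 208, 76.2, 59.1 and 95.7 in controls 1 to 4. Every control ratio of FPKM was above every knockdown ratio, with knockdown 3 nearest to the controls. On the log2(FPKM + 1) scale, which weighs the low Stat3 values of the controls less, Socs3 minus Stat3 overlapped, at 1.79 to 4.82 in the knockdown and 4.58 to 6.37 in the control. The exact permutation p of that difference was 0.0571, and since the pair was chosen from these values it supports nothing.

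Jak1 had 3.23, 3.94, 3.70 and 4.33 FPKM in knockdowns 1 to 4, against 3.28, 3.41, 4.79 and 3.99 FPKM in controls 1 to 4, and the groups covered the same range (log2 fold change -0.01, SE 0.22, limma adjusted p = 0.978). Ptpn11 had 5.87, 5.71, 5.25 and 4.84 FPKM in knockdowns 1 to 4, against 8.57, 4.04, 5.82 and 9.95 FPKM in controls 1 to 4. Its knockdown values lay inside the spread of the controls (-0.27, adjusted p = 0.597).

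The other 4 members stayed under 1 FPKM in every 8-cell library and were not in the fit. Lif, the ligand, had 0, 0.305, 0.256 and 0.387 FPKM in knockdowns 1 to 4, against 0.623, 0.356, 0.970 and 0.523 FPKM in controls 1 to 4, which overlapped (exact permutation p = 0.0571). Jak2 had 0.832, 0.877, 0.623 and 0.496 FPKM in knockdowns 1 to 4, against 0.178, 0.164, 0.562 and 0.475 FPKM in controls 1 to 4, with the knockdowns mostly on top (exact permutation p = 0.0571). In a limma fit without a filter the adjusted p was 0.305 for Lif and 0.330 for Jak2.

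The receptor chains were below 1 FPKM in every library of both groups. Lifr had 0.0969, 0.437, 0 and 0.523 FPKM in knockdowns 1 to 4, against 0.158, 0.230, 0.923 and 0.312 FPKM in controls 1 to 4. Il6st had 0.147, 0.299, 0.0252 and 0.472 FPKM in knockdowns 1 to 4, against 0, 0, 0.214 and 0.137 FPKM in controls 1 to 4. The groups overlapped for both (exact permutation p = 0.571 and 0.229). No member was separated between the groups, while 2.59% of the genes above 0 in at least 3 libraries were lower in every knockdown library than in any control and 6.75% were higher.

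**Figure D2:**
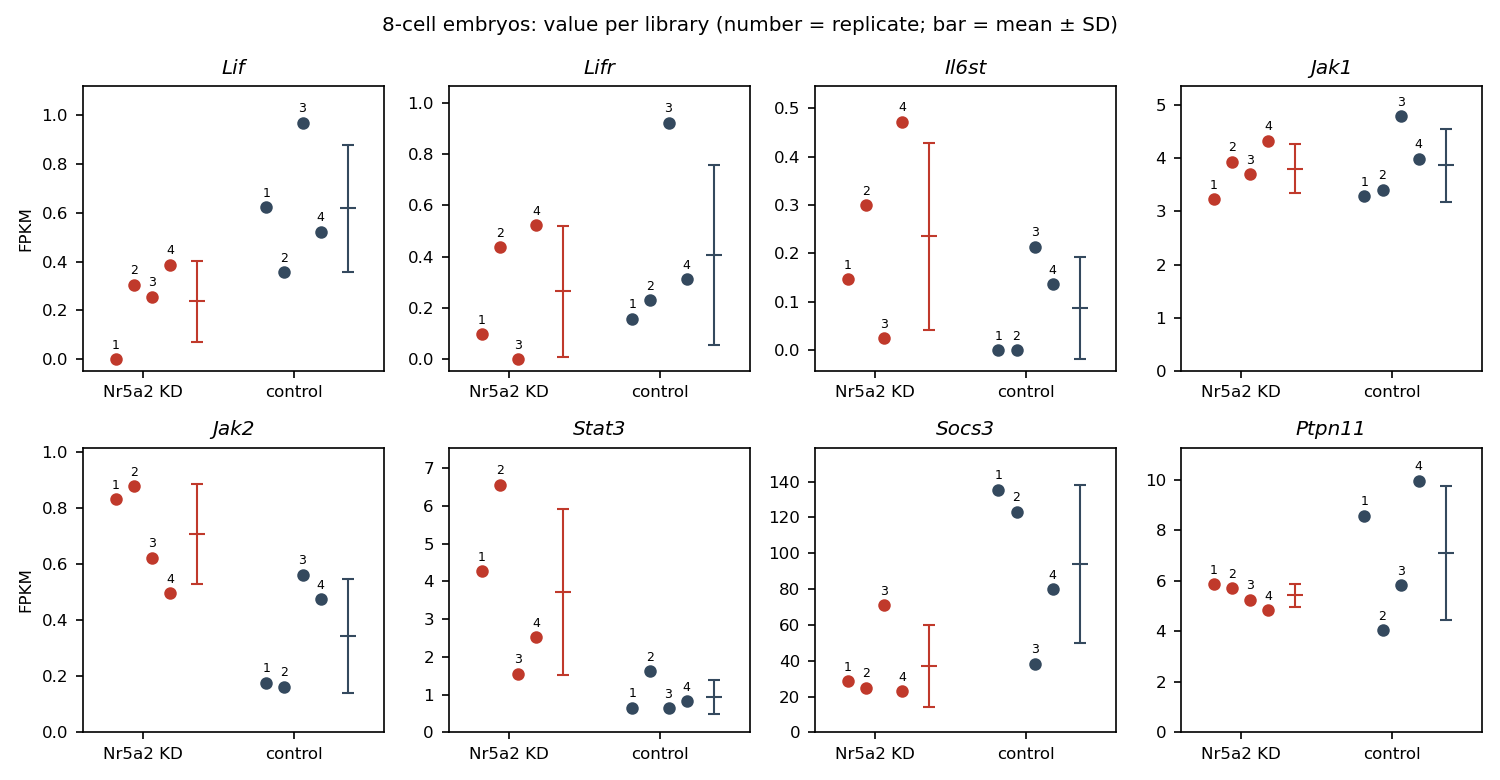
FPKM of each member (y axis, from 0) in the 4 Nr5a2 knockdown libraries (red, left) and the 4 control libraries (dark blue, right) of 8-cell embryos, with replicate numbers and the mean ± SD beside them. Socs3 is at 22.9 to 28.4 FPKM in 3 knockdowns and at 71.0 FPKM in knockdown 3, against 38.3 to 135 FPKM in the controls, and Stat3 is at 1.56 to 6.56 FPKM against 0.648 to 1.62 FPKM.

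Around the members, called genes were 1 of 2 tested JAK genes and 1 of 12 tested adaptor genes, both lower. Among all genes tested 2.26% were called, 0.698% of them all as lower. Tyk2, a kinase that works beside JAK1 at gp130, had 3.61, 3.20, 3.64 and 2.91 FPKM in knockdowns 1 to 4, against 9.35, 10.4, 8.41 and 6.71 FPKM in controls 1 to 4. The groups were far apart, and Tyk2 fell by 1.15 on the log2 scale (SE 0.22, limma adjusted p = 0.0313). Its call held in 2 of 8 fits with 1 library left out, without control 4 and without knockdown 3, with an adjusted p of up to 0.102 in the others, and it was lost without a filter (adjusted p = 0.0889). Of its exon bases 554 overlap an antisense locus, and the library method does not mark strand, so reads there cannot be told apart.

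Grb2, the adaptor that couples SHP2 to RAS, had 16.3, 16.0, 19.9 and 30.5 FPKM in knockdowns 1 to 4, against 59.4, 33.0, 45.5 and 44.6 FPKM in controls 1 to 4. The groups did not overlap, and Grb2 fell by 1.12 (SE 0.25, adjusted p = 0.0441), a call that held in 1 of 8 fits with 1 library left out, the one without knockdown 4, and was lost with no expression filter (adjusted p = 0.145). Its value is uncertain, since the locus Gm12791 carries a copy of its coding sequence at 98.0% identity.

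In the same adaptor list Frs2 had a log2 fold change of 0.94 (adjusted p = 0.0808), Map2k2 of -0.98 (adjusted p = 0.146) and Nras of 0.52 (adjusted p = 0.241). The median of the 12 adaptor genes tested was -0.23, against 0.12 for all genes. Of the 12 inhibitor genes tested none was called (median 0.05), and beside Socs3 the smallest p belonged to Socs2 (1.05, adjusted p = 0.180) and Pias4 (-0.38, adjusted p = 0.330). Il6ra, the only receptor gene of the family in the fit, had a fold change of 0.55 (adjusted p = 0.425), Stat2 of -0.13 (adjusted p = 0.819), and no ligand gene was in the fit.

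None of the 15 STAT3 target genes tested was called, with a median of -0.01. Klf5, a Krüppel-like factor needed for the first lineages of the embryo, had 15.8, 21.2, 32.2 and 15.2 FPKM in knockdowns 1 to 4, against 211, 112, 55.8 and 33.3 FPKM in controls 1 to 4. Control 4 was just above knockdown 3, so the groups did not overlap, but the controls spread widely (-1.96, SE 0.47, adjusted p = 0.0558). Tbx3, a pluripotency factor, had a fold change of -0.80 (adjusted p = 0.145) and the AP-1 gene Junb of 1.17 (adjusted p = 0.169).

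**Figure D3:**
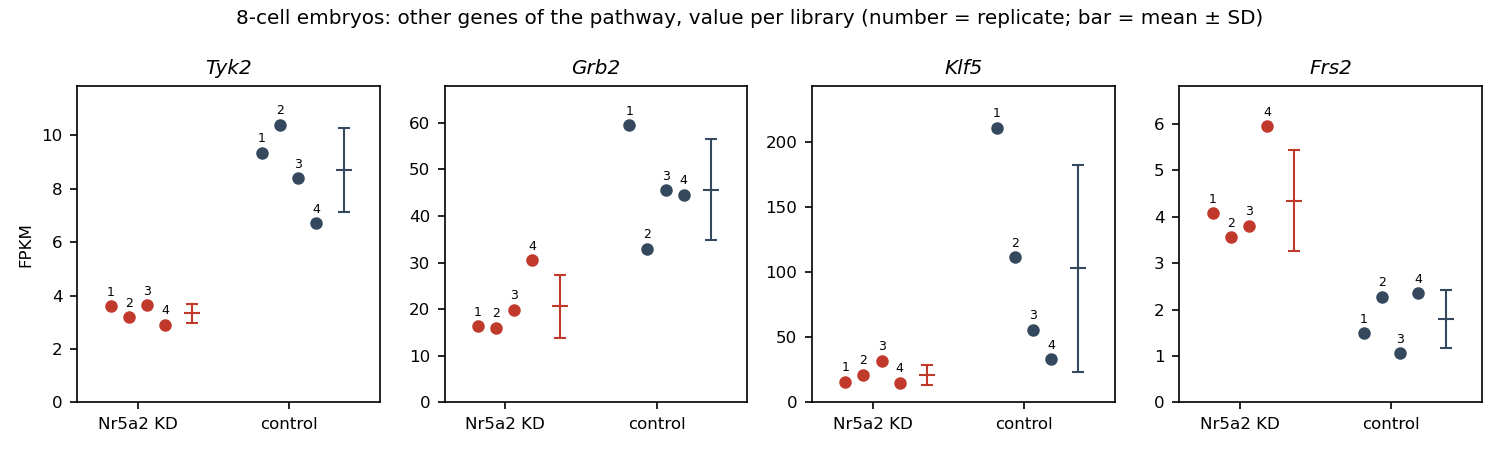
FPKM (y axis, from 0) of Tyk2, Grb2, Klf5 and Frs2 in the 4 Nr5a2 knockdown libraries (red, left) and the 4 control libraries (dark blue, right), with replicate numbers and the mean ± SD. In each panel the 2 groups do not overlap: Tyk2 is at 2.91 to 3.64 FPKM in the knockdown and at 6.71 to 10.4 FPKM in the control. Among the genes above 0 in at least 3 libraries, 2.59% were lower in every knockdown than in any control and 6.75% higher.

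Lineage markers are given beside these values. The 7 epiblast markers summed to 36.7 to 154 FPKM in the knockdown and 151 to 283 FPKM in the control, with 1 of 5 tested called, the Nodal co-receptor gene Tdgf1, which fell by 4.44 (adjusted p = 0.00182). The groups overlapped for Nanog (-1.23), Pou5f1 (-1.27), Klf2 (-0.43) and Esrrb (0.62), and Sox2 and Fgf4 were below the filter. Pou5f1 made up much of the sum, with means of 72.8 FPKM in the knockdown and 147 FPKM in the control. The 9 trophectoderm markers summed to 105 to 142 FPKM in the knockdown and 82.8 to 109 FPKM in the control. None of 4 tested was called, and Elf5 was at 0 in every library. Of those 4, Gata3 was higher in every knockdown than in any control (1.76, limma adjusted p = 0.0557). So were 6.75% of the genes above 0 in at least 3 libraries. The groups overlapped for Krt8 (1.19), Krt18 (0.85) and Tfap2c (-0.42). The 8 primitive endoderm markers summed to 19.3 to 35.4 FPKM in the knockdown and 31.8 to 43.5 FPKM in the control. Their part in the values of Stat3, Socs3, Tyk2 and Grb2 was not tested. In whole embryos fewer cells with a transcript and less transcript per cell cannot be told apart.

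The Gata4 knockdown addressed a transcription factor of the primitive endoderm, in blastocysts. Gata4 had 0, 0.368, 0 and 0 FPKM in knockdowns 1 to 4, against 3.18, 0.716 and 5.44 FPKM in controls 1 to 3, which did not overlap. Of 8782 genes with at least 1 FPKM in 3 libraries, 0.0342% were called, all lower. Of the 8 members 4 passed the filter (Lif, Jak1, Stat3 and Ptpn11) and none of them was called by limma, nor had any an unadjusted p under 0.05, as 2.3% of all genes tested did.

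The receptor chains and Socs3, all below the filter, were lower in every knockdown library than in any control. Lifr had 0.172, 0.141, 0 and 0.0134 FPKM in knockdowns 1 to 4, against 0.777, 0.468 and 2.17 FPKM in controls 1 to 3. Il6st had 0.0608, 0.0807, 0.0205 and 0.0662 FPKM in knockdowns 1 to 4, against 0.272, 0.189 and 0.394 FPKM in controls 1 to 3. Socs3 had 0.104, 0.840, 0.105 and 0 FPKM in knockdowns 1 to 4, against 0.983, 1.45 and 2.70 FPKM in controls 1 to 3.

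Thus 3 of the 8 members had groups that did not overlap, all lower, against 2.5% lower and 1.18% higher among the 13763 genes above 0 in at least 3 libraries. For each the exact two-sided permutation p, taken as the smaller tail doubled, was 0.0571, the smallest that this definition allows with 35 arrangements of 4 and 3 libraries. Taken from the absolute difference of the means, a definition added after seeing the data, the exact two-sided p was 0.0286 for Lifr and Il6st and 0.0571 for Socs3. None of these values was adjusted for the number of members, and whether Lifr and Il6st pass 0.05 depends on the definition. In a limma fit without the filter the adjusted p was 1.0 for Lifr and Socs3 and 0.931 for Il6st. These levels are low: only control 3 for Lifr and controls 2 and 3 for Socs3 were above 1 FPKM, and Il6st was below 0.4 FPKM throughout.

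Since the groups of Lifr, Il6st and Socs3 did not overlap, their differences had to have the same sign within both kinds of library. On the log2(FPKM + 1) scale the knockdown minus control difference was -1.24 for Lifr, -0.35 for Il6st and -1.36 for Socs3 among the 4 libraries with Rn45s. Among the 3 libraries without it the differences were -0.34, -0.15 and -0.78. With the library kind as a covariate and no filter the adjusted p was 0.671 for Lifr, 0.568 for Il6st and 0.606 for Socs3. After median scaling the pooled differences were -0.86, -0.23 and -1.05, with an exact permutation p (smaller tail doubled) of 0.171 for Lifr, 0.286 for Il6st and 0.0571 for Socs3, so that with this scaling only Socs3 kept the smallest p.

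Lif had its highest levels of the study here, with 4.14, 1.74, 1.66 and 4.29 FPKM in knockdowns 1 to 4, against 1.92, 3.72 and 10.1 FPKM in controls 1 to 3. The groups overlapped and control 3 stood apart (log2 fold change -0.51, SE 0.44, limma adjusted p = 1.0). Levels set against the stage table are side by side only, since the tables were scaled separately. Il6, another ligand of gp130, had 2.31, 6.58, 0.391 and 5.44 FPKM in knockdowns 1 to 4, against 0.106, 4.55 and 7.75 FPKM in controls 1 to 3.

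Jak1 had 7.48, 7.41, 3.98 and 5.71 FPKM in knockdowns 1 to 4, against 4.13, 5.96 and 4.55 FPKM in controls 1 to 3 (0.26, SE 0.40, adjusted p = 1.0). Jak2 had 0.571, 1.07, 0.534 and 0.351 FPKM in knockdowns 1 to 4, against 0.148, 0.950 and 0.617 FPKM in controls 1 to 3, and was below the filter (exact permutation p = 0.8). The groups overlapped for both kinases.

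Stat3 was well expressed, at 29.7, 23.5, 15.0 and 21.5 FPKM in knockdowns 1 to 4, against 16.0, 36.5 and 19.6 FPKM in controls 1 to 3 (-0.05, SE 0.43, adjusted p = 1.0). Its values did not overlap between the kinds of library. They were 15.0 to 21.5 FPKM in the 4 libraries with Rn45s and 23.5 to 36.5 FPKM in the 3 without. The same held for Ptpn11, at 1.57 to 2.26 FPKM with Rn45s and 2.40 to 3.19 FPKM without. It held for Jak1, at 3.98 to 5.71 FPKM with and 5.96 to 7.48 FPKM without. Such a split was not particular to these members. Nanog had 12.3 to 19.1 FPKM with Rn45s and 30.5 to 59.6 FPKM without. Gata6 and Cdx2 were split in the same direction, while Gata4, Sox17 and Pdgfra overlapped. The share of all genes split in this way was not counted. Ptpn11 had 2.40, 3.19, 2.16 and 1.72 FPKM in knockdowns 1 to 4, against 2.26, 2.43 and 1.57 FPKM in controls 1 to 3 (0.12, SE 0.36, adjusted p = 1.0).

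**Figure D4:**
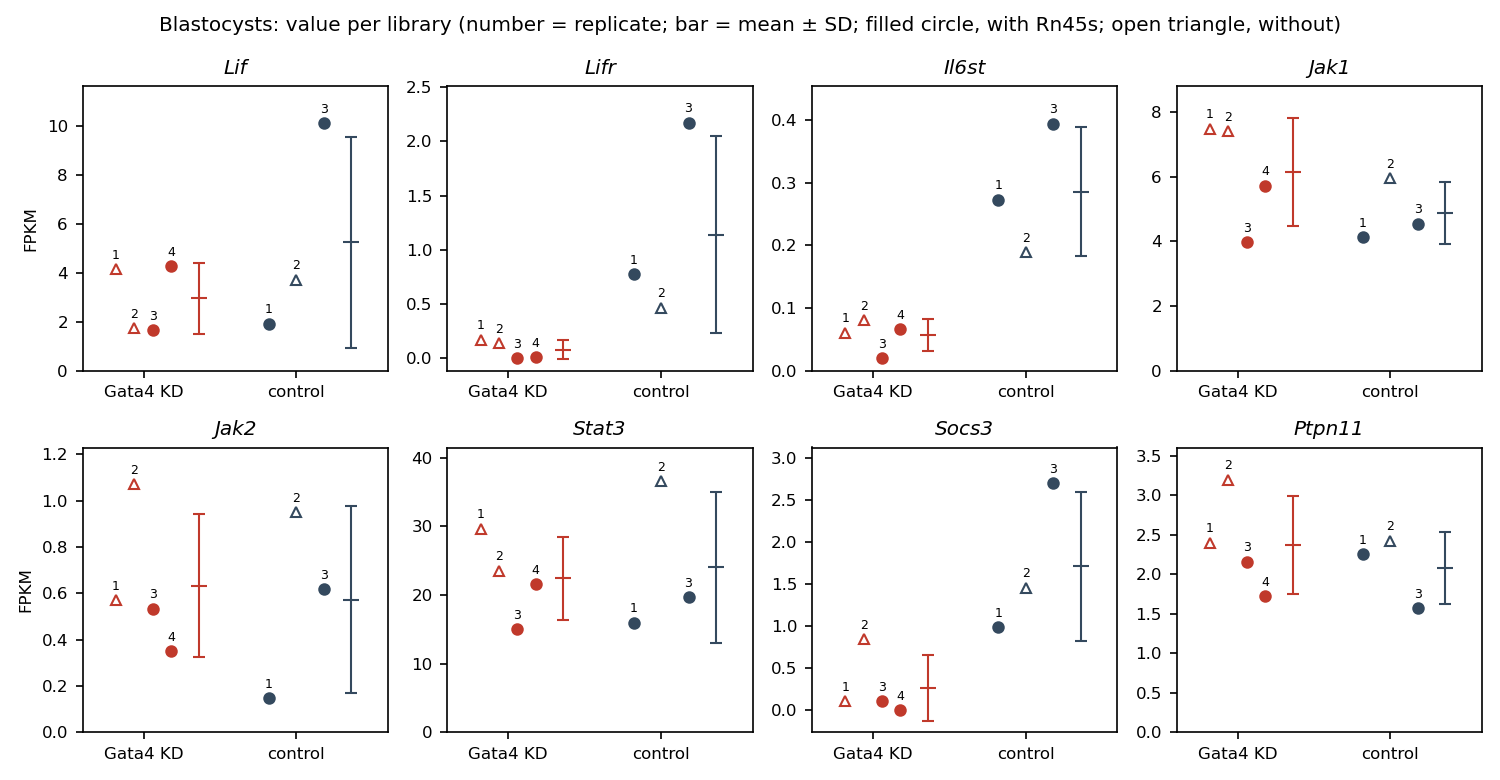
FPKM of each member (y axis, from 0) in the 4 Gata4 knockdown libraries (red, left) and the 3 control libraries (dark blue, right) of blastocysts, with replicate numbers and the mean ± SD; filled circles have Rn45s and open triangles have none. Lifr, Il6st and Socs3 are lower in every knockdown than in any control, and Stat3 is at 15.0 to 21.5 FPKM in the circles and 23.5 to 36.5 FPKM in the triangles.

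No gene of the wider pathway was called in the Gata4 knockdown by limma: none of 3 JAK, 3 STAT, 12 inhibitor, 15 adaptor and 12 target genes tested, of which 2, Junb (-1.09) and Fos (-1.08), both AP-1 genes that STAT3 can induce, had an unadjusted p under 0.05 (adjusted p = 1.0). The controls of Fos ran between 0.583 and 17.3 FPKM, while the knockdowns had 1.32 to 2.76 FPKM. Jak3 had 0.643, 0.541, 0.185 and 0.514 FPKM in knockdowns 1 to 4, against 1.10, 1.51 and 1.20 FPKM in controls 1 to 3, with no overlap (-0.63, adjusted p = 1.0). Jak3 passed the filter only through the controls, so its separation is not independent of the filter and supports nothing. Among the genes above 0 in at least 3 libraries, 2.5% were lower in every knockdown than in any control and 1.18% higher. Hras, a RAS gene, had 6.24 to 7.33 FPKM in the knockdown and 2.70 to 5.31 FPKM in the control (0.72, adjusted p = 1.0).

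Of the primitive endoderm markers, Sox17 was at 0 in knockdowns 1, 3 and 4 and at 0.121 FPKM in knockdown 2, against 0.383 to 0.952 FPKM in the controls. The whole list of 8 summed to 65.4 to 169 FPKM in the knockdown and 86.3 to 132 FPKM in the control, of which the endocytic adaptor gene Dab2 alone had 54.6 to 142 FPKM in the knockdown and 58.9 to 101 FPKM in the control. Of the 5 tested none was called, but 3 had an unadjusted limma p under 0.05, all lower. The other 2, Gata6 (0.09) and Dab2 (0.34), differed in the opposite direction, and the groups overlapped for all 5. The basement membrane genes Col4a1 and Lama1 differed by -1.48 (unadjusted p = 0.00139, adjusted p = 0.493) and -1.56 (unadjusted p = 0.00112, adjusted p = 0.447), and the receptor gene Pdgfra by -0.90 (unadjusted p = 0.0130, adjusted p = 1.0). The median over the 5 was -0.90. The 7 epiblast markers summed to 40.5 to 92.1 FPKM in the knockdown and 43.5 to 129 FPKM in the control. The 9 trophectoderm markers summed to 2267 to 4630 FPKM in the knockdown and 2720 to 3617 FPKM in the control. Their part in the values of Lifr, Il6st and Socs3 was not tested.

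**Figure D5:**
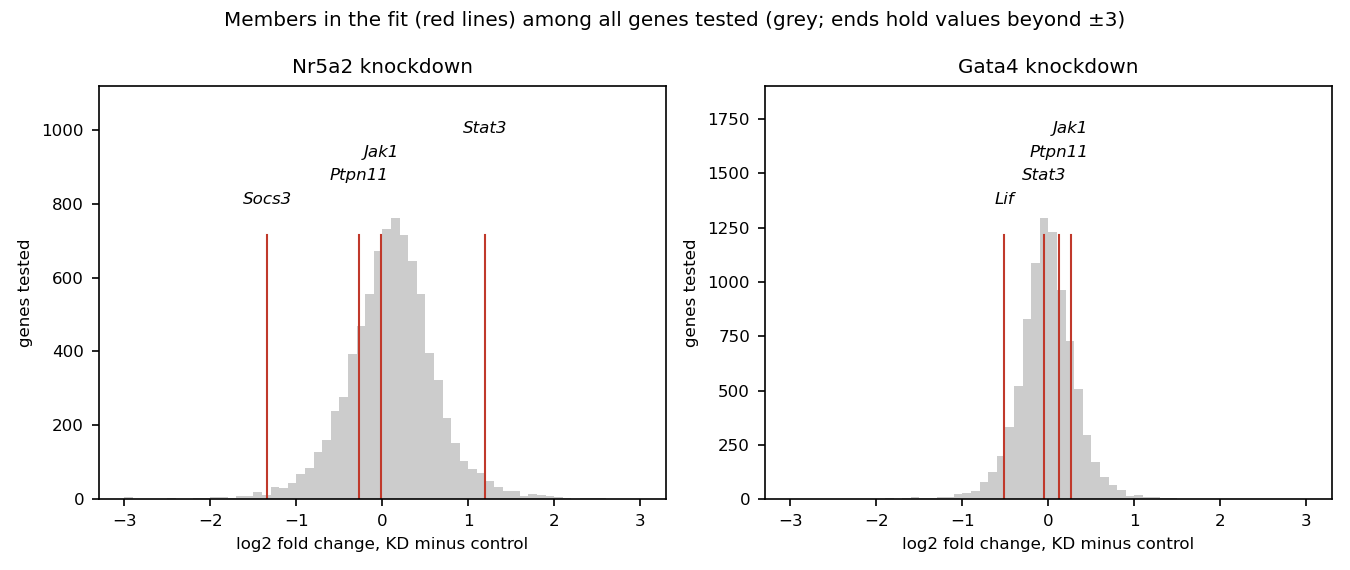
Number of genes tested (y axis) by log2 fold change, knockdown minus control (x axis), for the Nr5a2 knockdown (left) and the Gata4 knockdown (right); red lines mark the 4 members in each fit and the end bins hold values beyond the axis. Socs3 (-1.34) and Stat3 (1.20) lie on opposite flanks for Nr5a2, and all 4 members lie between -0.51 and 0.26 for Gata4.

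Side by side, Socs3 was lower on average in the knockdown in 2 separate experiments. On the log2(FPKM + 1) scale it fell by 1.34 in 8-cell embryos, where it was abundant, and by 1.10 in blastocysts, where it was scarce. The control mean was 2.55 and 6.51 times the knockdown mean. In 8-cell embryos Socs3 was not called by limma. In blastocysts its exact permutation p (smaller tail doubled) was 0.0571, the smallest possible there, so it could not pass 0.05. Stat3 differed by 1.20 in 8-cell embryos and -0.05 in blastocysts. Whether the 2 knockdowns differed in either gene was not tested. No member has a near-identical copy of its coding sequence elsewhere, and 72 of 9527 exon bases of Stat3 overlap Stat5a and 4 of 7227 of Jak1 overlap Raver2, both on the opposite strand.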

How the data were processed

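RNA was sequenced from polyadenylated transcripts in 32 samples. CASAVA 1.8, STAR 2.4.0 and the mm9 build are named for all 32 samples in the submitters' processing notes, and Cufflinks 2.2.1 for 20 of them. For the rest (MII oocyte, early 2-cell and 8-cell knockdown samples) the tool behind the FPKM is not given in the sources used here. The values are FPKM as the authors deposited them, in 3 tables. How samples became 1 stage column is not given either.

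The members and all lists were chosen with earlier results of these data known. Each knockdown was compared with its control with limma 3.58.1 in R 4.3.3 (trend in the prior variance) on log2(FPKM + 1), on genes that reached 1 FPKM in 4 or more 8-cell libraries or in 3 or more blastocyst libraries. This scale understates changes of low genes. P-values were adjusted by Benjamini-Hochberg across every gene in a fit, with a threshold of 0.05, and the fit was tested on simulated data. Members also had an exact permutation test per gene and knockdown, made two-sided by doubling the smaller tail and not adjusted; for those under the filter it is the main test. Relative depth came from steps between FPKM values under 0.4, on which all 28 pairs of 8-cell libraries fell within 2.92%. Named genes were the members, the targeted genes, Rn45s, called genes of each list and up to 3 with the smallest p (stages: the widest range), and the 3 genes most like each member; further cell type markers are named beside the results they touch, and 1 gene that the rule names is not reported here. Near-identical copies were searched with BLAST 2.17.0 (95% identity over 50% of the coding sequence) among GENCODE M21 transcripts, which served for names and overlaps only. Alternatives were other pseudocounts (0.1 and 5), filters and scalings, no variance trend, the replicate number as a block, the library kind, and each library left out; 4 settings with no filter, and a permutation p from the absolute difference, were added after seeing the data. No column of values was left unused. Figures were drawn with matplotlib 3.10.9, and other steps used scipy 1.17.1, pandas 2.3.3 and numpy 2.4.6 in Python 3.11.15.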

Additional observations from a re-analysis of the deposited data

Results flagged for a closer look

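In 3 of 27 combinations of a gene and a group of 4 libraries, 1 library lay farther from the others than Dixon's 95% limit allows; chance gives about 1 in 20. Socs3 stood at 71.0 FPKM in Nr5a2 knockdown 3, against 22.9 to 28.4 FPKM in the other 3 knockdowns. Socs3 stood at 0.840 FPKM in Gata4 knockdown 2, against 0 to 0.105 FPKM in the other 3. Gata4 itself stood at 0.368 FPKM in the same library, Gata4 knockdown 2, and was listed at 0 in the other 3; with 3 values at 0 any other value passes this limit, so it says nothing here. Nr5a2 had 6.72 FPKM in Nr5a2 knockdown 3 and 6.60 FPKM in knockdown 4. A relation between Socs3 and the targeted gene was not tested.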

How the results depend on the processing

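Nr5a2 knockdown: 185 genes were called, against 108 with a pseudocount of 0.1, 11 without a filter, 55 with the replicate number as a block, and 21 to 285 with each library left out (285 without knockdown 3, 21 without control 1). The split of 128 higher and 57 lower became 65 and 80 after median scaling and 68 and 71 after quantile normalization. Members called ranged over 0 to 2 with each library left out, 2 only without knockdown 3. Same-numbered libraries did not deviate together (correlations of -0.11 to 0.08), which cannot show whether they were paired. Tyk2 and Grb2 had limma adjusted p = 0.0696 and 0.0713 under the block. Without a filter Nr5a2 itself (0.0845), Tyk2 (0.0889) and Grb2 (0.145) were not called, nor was Grb2 with a pseudocount of 0.1 (0.0556) or no variance trend (0.0592). In 9 settings Tyk2 was called in 6 and Grb2 in 4. Lif reached the smallest exact permutation p, 0.0286, after median scaling. Signs changed for Jak1 (-0.073 to 0.072 with each library left out, positive without control 3, control 4 or knockdown 1) and Lifr (-0.24 to 0.015, positive without control 3).

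Gata4 knockdown: 3 genes were called, against 1 with a pseudocount of 0.1, 18 with the replicate number as a block (no clear pairing: correlations of -0.10 to 0.28), 1 within libraries without Rn45s and 1 to 27 with each library left out (27 without knockdown 2, 24 without control 2). The count was 0 without a filter (limma, 558 unadjusted), after median scaling (494), after quantile normalization (484), with the library kind as a covariate (704) and within libraries with Rn45s (736). Members called stayed at 0. Signs changed for Stat3 (0.024 within libraries with Rn45s, also without a filter), and Jak2 (-0.11 within libraries without Rn45s). With each library left out they also changed for Stat3 (-0.29 to 0.29, positive without control 2 or knockdown 3), Lif (-0.95 to 0.015) and Ptpn11 (-0.0062 to 0.22), both without control 3, and Jak2 (-0.14 to 0.24, negative without control 1 or knockdown 2).

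Stage steps past the rule numbered 19, against 12 with a pseudocount of 5. The cause of these differences was not tested. Of 324 alternative values of single genes, 283 kept their direction and side of the threshold. For members under the filter this tally does not measure robustness. With 35 or fewer arrangements the permutation p (smaller tail doubled) cannot fall below 0.0571, so many of their values could not change side. Lif, Lifr, Il6st and Jak2 were below 1 FPKM in every 8-cell library, as were most values of Lifr, Il6st and Socs3 in blastocysts; how far depth limits these values was not tested.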
